A study of Mus musculus with 126 samples.

Results

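The effect of dietary salt on the mouse colon was compared between mice fed by day and mice fed at night. A positive interaction is a high-salt effect that was more positive, or less negative, in day-fed than in night-fed mice. The members are all genes in 72 libraries, those of 4 groups of 18, in a series that holds 54 libraries more: high salt fed by day, low salt fed by day, high salt fed at night and low salt fed at night. All mice were 8-week-old male C57BL/6 mice kept in cycles of 12 h light and 12 h dark, given their diet in a restricted daily window, and the colon was taken at zeitgeber times (ZT, hours after lights on) 0, 4, 8, 12, 16 and 20, with 3 libraries at each time. The labels state neither the salt content of the diets nor the feeding hours nor how long the feeding lasted. The other 54 libraries, from chow-fed wild-type and gut-knockout mice, entered only the scale factors and the filter on low values. Of 24883 rows, 11377 passed that filter, a mean of at least 1 rescaled FPKM (fragments scaled by transcript length and by the library's mapped fragments, brought to a common scale over libraries) in at least 1 of the series' 7 groups.

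Salt uptake by the distal colon runs through the epithelial sodium channel ENaC, made of the subunits encoded by Scnn1a, Scnn1b and Scnn1g. Its abundance is driven by aldosterone through the mineralocorticoid receptor, so salt loading is known to lower it. Nocturnal mice eat mainly in darkness, and feeding by day is known to move the clocks of peripheral organs towards the new mealtime while the brain's clock stays with the light. The colon epithelium also makes antimicrobial proteins, answers interferons, which induce antiviral genes through the response element ISRE, and can display antigen to the T cells that lie within it.

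The tissue label was checked against markers: the summed level of 9 epithelial markers had medians of 7364, 7465, 7467 and 7425 rescaled FPKM in the high-salt day-fed, low-salt day-fed, high-salt night-fed and low-salt night-fed groups, while the summed level of 8 fibroblast markers had medians of 0.850, 1.11, 1.35 and 1.17. None of the 10 neuronal and glial, 6 endothelial and 7 keratinocyte markers passed the filter, and 3 of 10 smooth muscle markers did. In 5 libraries, all of the high-salt night-fed group (3 at ZT8 and 2 at ZT12), the scale factor lay under 0.6. Their median share of ribosomal RNA was 0.956%, against 0.145% in the other 67, of which the highest had 5.45%. That share was 15.7% and 10.2% in the 2 of ZT12 and 0.349% to 0.956% in the 3 of ZT8. The files hold FPKM and no counts, so depth is unknown. None of the 72 pairs of libraries of the same group and time held identical values. Libraries of different groups or times were not compared in this way. Nothing states that libraries of a group came from separate animals, so p-values measure only the spread between these libraries.

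The day-fed high-salt libraries of ZT0 and ZT12 did not follow the clock genes of the low-salt day-fed libraries of the same label. Over 16 clock genes, the 3 high-salt day-fed libraries of ZT0 correlated with the ZT0 mean of the low-salt day-fed group at a median r of -0.839, and with its ZT12 mean at 0.929. The 3 libraries of ZT12 correlated at -0.836 with the ZT12 mean and at 0.821 with the ZT0 mean. At ZT4, ZT8, ZT16 and ZT20 the median r with the same time was 0.803, 0.609, 0.759 and 0.376. Of the 3 libraries at each of these times, 3, 0, 2 and 1 were nearest to the same time on low salt. The others were nearest to a time 4 h away. The same 6 libraries correlated with the same-time means of the high-salt night-fed group, at 0.966 at ZT0 and 0.976 at ZT12, and of the low-salt night-fed group, at 0.936 and 0.981. High-salt day-fed libraries of ZT4, ZT8, ZT16 and ZT20 instead went against the same-time high-salt night-fed means, at -0.831, -0.862, -0.867 and -0.942. With the high-salt night-fed means 12 h away they correlated at 0.892, 0.906, 0.939 and 0.925. In the night-fed groups 17 of 18 high-salt libraries were nearest to the same time on low salt. Labels were kept, and the cause was not tested. The totals of called genes, and many but not all list counts and gene values, are given with and without ZT0 and ZT12. Fits without these times used 24 h cosine and sine terms in place of a mean per time. Where no value without them is given, the result is for all 6 times.

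The level interaction is the double difference (high minus low salt, day fed) minus (high minus low salt, night fed), averaged over the 6 times, on log2(rescaled FPKM + 0.5), with limma's moderated test and Benjamini-Hochberg adjustment over all 11377 rows at 0.05. It was called for 2245 rows, 19.7% of those tested, of which 1250 were positive (11%) and 995 negative (8.75%). In 179 of them the double difference was at least 1 in size, and 149 of these were positive. Leaving out ZT0 and ZT12, 729 rows were called (6.41%), 719 of them among the 2245. That fit used cosine and sine terms, with which 1847 rows were called at all 6 times. Between diets alone, 1688 rows differed in day-fed mice, of which 886 were higher (7.79%) and 802 lower (7.05%) on high salt, and 3978 rows differed in night-fed mice, of which 1752 were higher (15.4%) and 2226 lower (19.6%). These totals were 677 by day and 2679 at night without ZT0 and ZT12. Among the 1250 positive calls, 221 were higher by day and lower at night with both salt effects called, 630 were called only as lower at night and 249 only as higher by day. Among the 995 negative calls, 26 were lower by day and higher at night with both called, 672 were called only as higher at night and 160 only as lower by day. With the 5 libraries of low scale factor left out, fitted with cosine and sine terms, 508 rows had a level interaction, 80.7% of them positive. In that fit 1546 rows differed between diets at night, 33.9% of them higher on high salt.

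**Figure D1:**
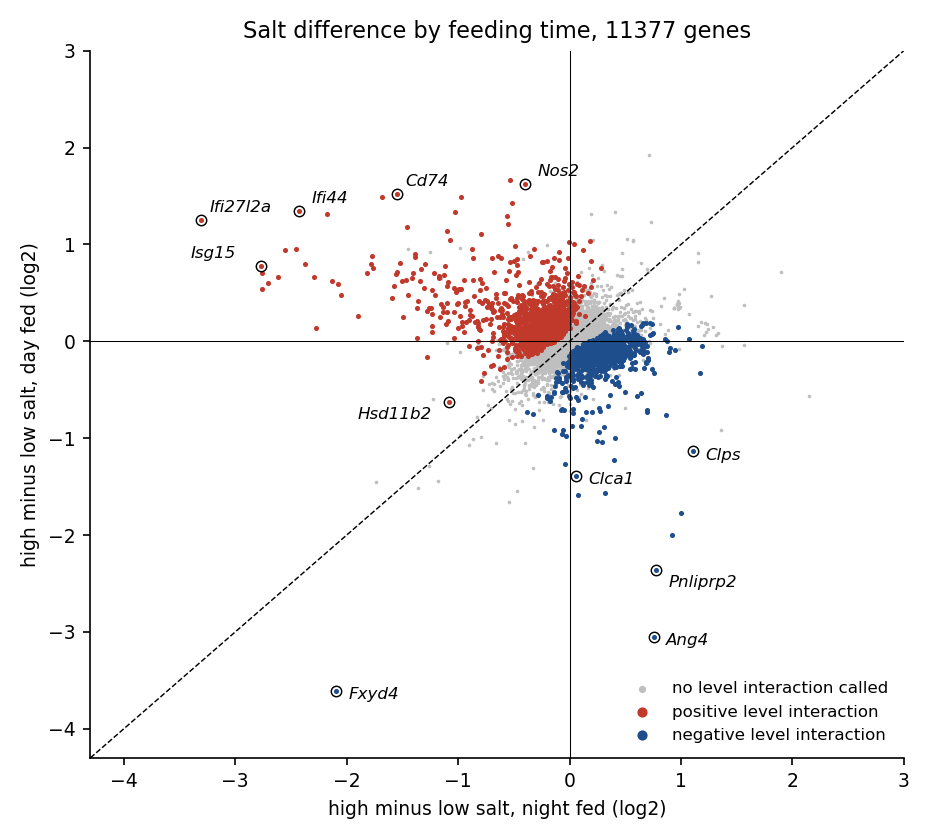
Each point is a gene, with the high-minus-low salt difference (log2, mean of 6 times) in night-fed mice on the x axis and in day-fed mice on the y axis; on the diagonal the salt effect is the same under both feeding times. Interferon-response genes sit at the upper left, with medians of -2.13 at night and 0.63 by day, and Ang4, at 0.76 and -3.05, sits below the diagonal.

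Interferon-response genes showed the largest positive double differences. Of the 6 genes of this list whose promoter holds the interferon response element, 4 are shown for what the element looks like there, and 1 clock promoter is shown for the rhythm results; they were not chosen for the size of their change. Sequences are the 250 bases before the RefSeq start of transcription, GRCm38.p6, 5′ to 3′ in the gene's direction. In the interferon genes capitals mark the ISRE core, searched on both strands as GAAA, any 2 bases and GAAA, which can overlap when repeated, and in Ciart they mark the E-box CACGTG, where CLOCK and BMAL1 bind.
Isg15, chr4:156200819-156201068, minus strand: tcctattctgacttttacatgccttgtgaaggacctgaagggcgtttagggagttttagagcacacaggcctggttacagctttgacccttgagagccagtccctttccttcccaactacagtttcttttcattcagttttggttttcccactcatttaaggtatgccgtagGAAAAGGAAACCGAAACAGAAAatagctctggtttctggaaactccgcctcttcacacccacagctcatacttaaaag
Ifit1, chr19:34640639-34640888, plus strand: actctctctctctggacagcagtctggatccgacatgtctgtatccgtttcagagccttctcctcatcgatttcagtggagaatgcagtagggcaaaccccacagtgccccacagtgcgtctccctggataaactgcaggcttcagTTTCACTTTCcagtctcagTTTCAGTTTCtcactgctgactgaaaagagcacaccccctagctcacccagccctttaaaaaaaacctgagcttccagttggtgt
Ifit3, chr19:34583279-34583528, plus strand: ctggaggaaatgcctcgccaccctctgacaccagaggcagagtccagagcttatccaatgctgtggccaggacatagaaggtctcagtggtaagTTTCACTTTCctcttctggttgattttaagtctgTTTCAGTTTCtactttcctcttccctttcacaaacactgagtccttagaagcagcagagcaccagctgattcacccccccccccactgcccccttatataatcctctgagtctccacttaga
Rsad2, chr12:26456453-26456702, minus strand: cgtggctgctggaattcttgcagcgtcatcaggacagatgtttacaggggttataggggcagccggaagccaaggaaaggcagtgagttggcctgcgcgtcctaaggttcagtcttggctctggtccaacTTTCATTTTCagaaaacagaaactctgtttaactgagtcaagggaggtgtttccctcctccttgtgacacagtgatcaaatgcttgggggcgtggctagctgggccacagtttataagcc
Ciart, chr3:95882229-95882478, minus strand: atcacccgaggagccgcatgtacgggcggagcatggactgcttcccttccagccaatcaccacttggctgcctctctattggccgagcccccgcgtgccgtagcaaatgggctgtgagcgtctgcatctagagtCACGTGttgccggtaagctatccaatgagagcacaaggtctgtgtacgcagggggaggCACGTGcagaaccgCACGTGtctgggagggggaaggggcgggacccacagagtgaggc
The ISRE core lay within 250 bases before to 50 after the start in 6 of the 11 interferon-response genes with a promoter in the table (54.5%), against 3.69% of 8555 tested genes with one and 3.99% of all 27025 promoters. It lay in 1 of 9 MHC class I genes, B2m, and in 0 of 4 MHC class II genes. The E-box lay in 4 of 13 clock genes (30.8%), Per1, Cry1, Tef and Ciart, against 12.1% of the tested genes. A match to these letters is a description of the sequence only.

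All 15 interferon-response genes had a positive level interaction, against 11% of all rows, with a median of 2.76, against 0.04 over all tested rows. High salt raised all 15 in day-fed mice, with a median salt difference of 0.63, and lowered all 15 in night-fed mice, with a median of -2.13. All 15 were again called and positive without ZT0 and ZT12, with a median of 2.78. The list was chosen with earlier results of these libraries known, so its count is not independent evidence of its direction.

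Isg15 (chr4:156199424-156200818, minus strand, mm10) encodes a ubiquitin-like protein that is conjugated to other proteins after interferon. In day-fed mice it ran from 57.6 to 147 rescaled FPKM on high salt, with a median of 87.3, against 21.6 to 125.9 on low salt, with a median of 51.1. In night-fed mice it ran from 6.43 to 30.9 on high salt, with a median of 9.87, against 22.3 to 186 on low salt, with a median of 81.4. Every high-salt night-fed library thus lay below every high-salt day-fed library, while high and low salt overlapped within each feeding time. The salt difference was 0.77 by day and -2.77 at night, a double difference of 3.54 ± 0.22 (SE; 95% interval 3.11 to 3.97; limma, adjusted p = 4.82e-19), and 3.58 without ZT0 and ZT12. It was positive at each of the 6 times, between 2.69 and 4.24.

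Ifi27l2a, an interferon-induced gene, had the largest double difference, 4.55 ± 0.33. Its median level was 23.0 rescaled FPKM on high salt and 9.04 on low salt by day, and 1.46 on high salt and 18.6 on low salt at night. At night its highest value on high salt, 4.78, lay below its lowest on low salt, 5.69.
Ifi44, an antiviral gene, had a double difference of 3.77 ± 0.19, with 0.0765 to 1.11 rescaled FPKM on high salt at night, against 1.72 to 7.41 on low salt at night. By day it ran from 3.45 to 10.8 on high salt, against 0.843 to 4.87 on low salt.
Oas3 (3.49 ± 0.17) and Oas2 (3.46), make the 2′-5′ oligoadenylates that activate RNase L, and Oas3 had a median of 8.11 on high salt and 3.98 on low salt by day, and 0.623 on high salt and 6.79 on low salt at night.
Usp18, the protease that removes ISG15 from proteins and restrains interferon signalling, had a double difference of 3.41 ± 0.18. Ifit1, which binds foreign RNA, had 3.17 ± 0.18, and its high-salt night-fed values of 1.01 to 4.32 rescaled FPKM did not overlap its low-salt night-fed values of 5.41 to 42.1. The other genes among the 12 largest positive double differences were Ifit2 (3.49), Apol9b (3.31), Oasl2 (3.30), Apol9a (3.28) and Iigp1 (3.17), a GTPase that attacks the vacuoles of intracellular parasites. Apol9a and Apol9b are near-identical copies, and how reads were divided between them is uncertain. Ifit3 had 2.67 ± 0.20 and Rsad2, the antiviral enzyme viperin, 1.72 ± 0.15. The 12 largest each stayed called in those of 17 other settings in which they were tested and in all 72 fits that left out 1 library. Without the 5 high-salt night-fed libraries of low scale factor, fitted with cosine and sine terms, they ran from 3.02 to 4.55, and all 15 genes of the interferon list were again called.

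**Figure D2:**
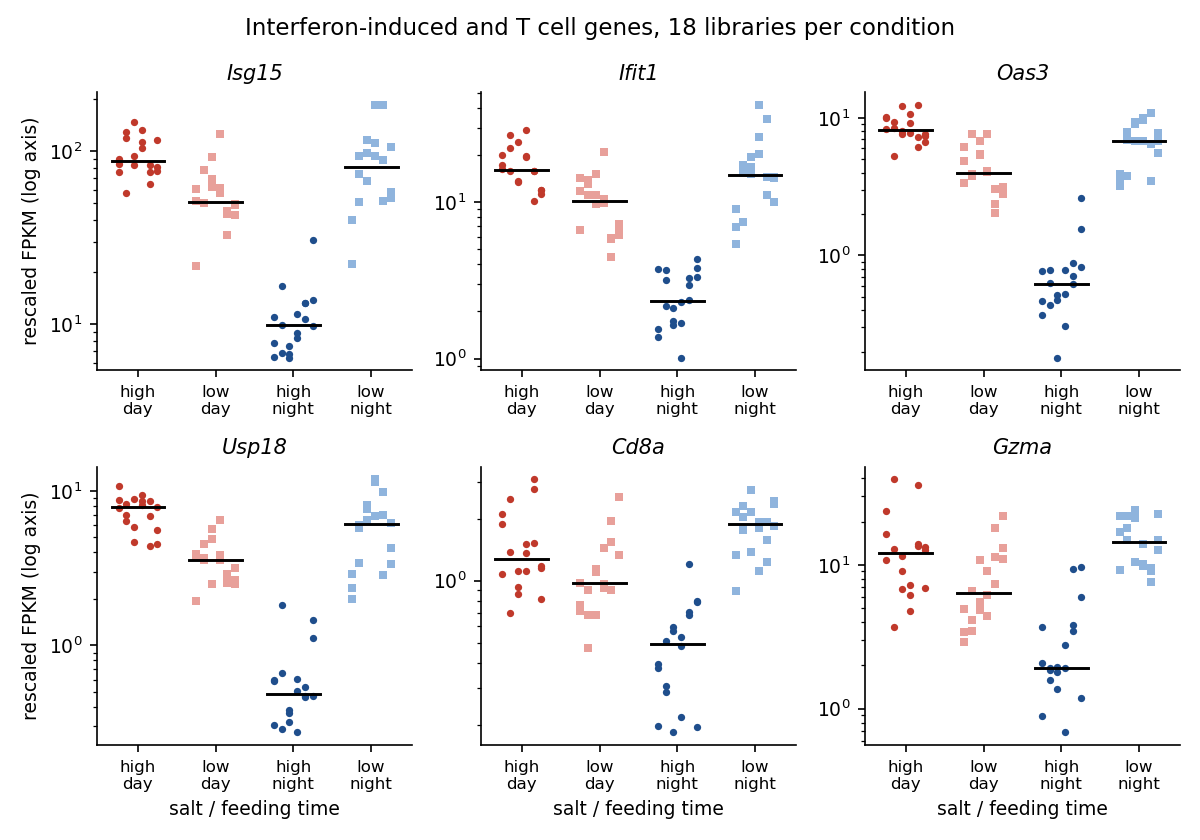
Rescaled FPKM (log axis) in every library of the 4 groups for the interferon genes Isg15, Ifit1, Oas3 and Usp18 and the T cell genes Cd8a and Gzma; points run by time from left to right and bars are medians of 18 libraries. The high-salt night-fed libraries lie lowest, with medians of 9.87 for Isg15, 2.34 for Ifit1 and 1.93 for Gzma.

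Genes of MHC class I, which shows peptides from inside the cell to CD8+ T cells, followed the same directions at smaller size. Of 11 tested, 10 were called and all 10 were positive, also without ZT0 and ZT12, and the median of the 11 was 1.33. B2m, the invariant light chain of class I (chr2:122147686-122153083), ran from 436 to 887 rescaled FPKM on high salt and 299 to 582 on low salt by day, and from 129 to 503 on high salt and 390 to 720 on low salt at night. The day and night ranges overlapped between diets. Its double difference was 1.84 ± 0.11, from a salt difference of 0.67 by day and -1.17 at night. Tap1, the peptide transporter, had 1.82 ± 0.17, Nlrc5, the transactivator of class I genes, 1.67 ± 0.15, and Psmb8, an immunoproteasome subunit, 1.504 ± 0.17. B2m had 1.69 and Tap1 1.51 without ZT0 and ZT12, both still called.

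T cell markers moved with the interferon and MHC genes. The summed level of 8 markers ran from 12.2 to 77.9 rescaled FPKM with a median of 27.8 on high salt and from 10.2 to 58.4 with a median of 20.0 on low salt by day, and from 3.51 to 30.0 with a median of 9.56 on high salt and from 22.5 to 57.1 with a median of 35.7 on low salt at night. No marker had a median of 0 in any group, but on high salt at night 5 of the 8 had a median under 1 rescaled FPKM. By day this held for 1 on high salt and 2 on low salt, and for 1 on low salt at night. All 7 markers tested had a positive level interaction (median 1.55), against 11% of all rows. On high salt 7 were lower at night, against 19.6% of all rows, and 1 was higher by day, against 7.79%. In bulk tissue fewer cells of a type and less RNA per cell cannot be told apart, and the part of T cells in the interferon and MHC results was not tested. Gzma, a granzyme of cytotoxic lymphocytes, had a double difference of 2.95 ± 0.30, with medians of 12.1 on high salt and 6.36 on low salt by day, and 1.93 on high salt and 14.5 on low salt at night. Gzmb had 2.53 ± 0.29, with 0 to 2.31 on high salt at night, against 1.61 to 6.93 on low salt at night. Cd8a, the co-receptor for class I, had 1.51 ± 0.16, with a called salt difference of -1.23 at night and 0.28 by day (limma, adjusted p = 0.074). Cd3g had 1.61, Cd7 1.55.

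MHC class II genes, which show peptides from outside the cell to CD4+ T cells, were all positive as well, 7 of 7 tested with a median of 2.24, and 6 of the 7 also had a rhythm interaction, against 6.21% of all rows. All 7 were higher on high salt by day and all 7 lower at night. Cd74, the invariant chain (chr18:60803848-60812652), ran from 62.1 to 593 rescaled FPKM with a median of 139 on high salt by day, against 6.75 to 408 with a median of 58.8 on low salt by day. At night it ran from 8.01 to 156 with a median of 21.6 on high salt, against 22.7 to 331 with a median of 77.3 on low salt. Its double difference was 3.07 ± 0.36 (limma, adjusted p = 3.44e-09). By time it was 7.21 at ZT0, 6.79 at ZT4, 0.84 at ZT8, 2.30 at ZT12, 0.47 at ZT16 and 0.80 at ZT20, each with an SE of 0.89, so the early times carried most of it. H2-Ab1, a class II beta chain, followed the same course, 5.93 and 5.47 at ZT0 and ZT4 against 0.47, 2.03, 0.02 and 0.28 later, with a mean of 2.37 ± 0.29. H2-Aa had 2.46, H2-Eb1 2.24, H2-DMb1 1.90 and H2-DMa 1.48. Without ZT0 and ZT12, 6 of 7 were called for level, with a median of 1.48 over the 7, and 0 for rhythm, while 6 were higher on high salt by day and 1 lower at night; Cd74 then had 2.23 and H2-Ab1 1.56.

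**Figure D3:**
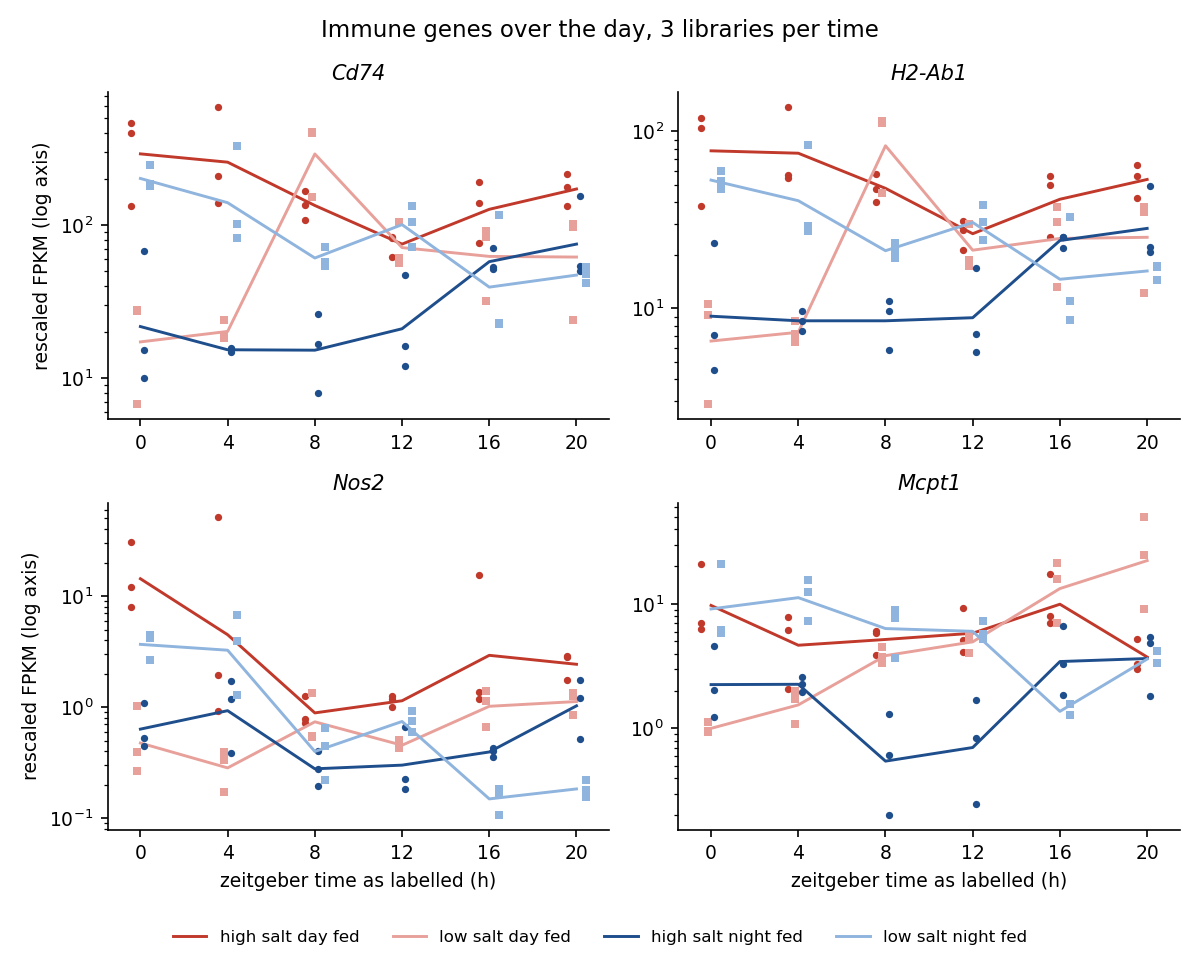
Rescaled FPKM (log axis) against zeitgeber time for the MHC class II genes Cd74 and H2-Ab1, the nitric oxide synthase Nos2 and the mast cell chymase Mcpt1 in the 4 groups; lines join the means on the log scale and points are the 3 libraries of each time. For Cd74 the gap between diets differs most between feeding times at ZT0 and ZT4, where the double difference was 7.21 and 6.79.

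Among the enzymes that make or remove reactive oxygen and nitrogen at the epithelial surface, several were higher on high salt in day-fed mice. Of 12 oxidative defence genes tested, 7 had a positive and 1 a negative level interaction, against 11% and 8.75% of all rows, and 6 were called higher on high salt by day, against 7.79%. Without ZT0 and ZT12, 3 were higher by day. The interaction counts were 0 positive and 1 negative without those times, and 2 and 0 with the 5 low-scale libraries left out. Nos2, the inducible nitric oxide synthase (chr11:78920787-78960254), had a median of 1.57 rescaled FPKM on high salt by day, with 50.9 in its highest library, against 0.548 and 1.39 on low salt by day. At night its medians were 0.437 on high salt and 0.620 on low salt. The summed level of 4 neutrophil markers ran from 0.0458 to 20.5 on high salt and 0.0541 to 1.15 on low salt by day, and from 0.0584 to 2.05 on high salt and 0.0245 to 3.63 on low salt at night, with 1 or 2 of them at a median of 0, and its part in the Nos2 result was not tested. The double difference was 2.02 ± 0.37, and 1.26 without ZT0 and ZT12, where it was not called (limma, adjusted p = 0.11). Duox2, an epithelial hydrogen peroxide source, had 1.48 ± 0.34 and its maturation factor Duoxa2 1.03 ± 0.24; without ZT0 and ZT12 they had 1.09 and 0.29 and were not called. Gpx2, the gut glutathione peroxidase, was the negative member at -0.54.

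Ang4, a secreted defence gene, had the largest negative double difference among the genes named. Of 14 secreted defence genes tested, 7 were called and all were negative, against 8.75% of all rows, with a median over the 14 of -0.64; without ZT0 and ZT12 the same 7 were called, and 5 were called with the 5 low-scale libraries left out. By day 5 were lower and 2 higher on high salt, and at night 2 were higher. Ang4, an antimicrobial ribonuclease of goblet and Paneth cells (chr14:51763878-51773590, minus strand), ran from 8.76 to 244 rescaled FPKM with a median of 63.6 on high salt by day, against 214 to 1389 with a median of 519 on low salt by day. At night it ran from 21.1 to 711 with a median of 92.4 on high salt, against 15.9 to 461 with a median of 66.2 on low salt. The low-salt day-fed libraries thus stood above the other 3 groups, with some overlap. The salt difference was -3.05 by day and 0.76 at night (limma, adjusted p = 0.088 at night), a double difference of -3.80 ± 0.50 (95% interval -4.80 to -2.80; limma, adjusted p = 5.81e-08). It was negative at each of the 6 times, between -5.55 and -0.88, and was -3.82 without ZT0 and ZT12.

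Itln1, a lectin that binds microbial sugars, had a double difference of -2.77 ± 0.39, with a salt difference of -1.77 by day and 1.002 at night. Retnlb, a goblet cell protein that acts on Gram-positive bacteria, had -1.88 ± 0.31. By day it had a median of 281 on high salt and 829 on low salt, and at night 268 on high salt and 231 on low salt. Mptx1, a pentraxin of the colon epithelium, had -1.67 ± 0.27, Reg4 -1.63 ± 0.23 and Pla2g2a, a secreted bactericidal phospholipase, -1.02. Reg3b and Reg3g, lectins that kill bacteria, had 1.12 and 1.21 and were not called (limma, adjusted p = 0.14 and 0.11). Of the 10 goblet cell genes, 1 was positive (Atoh1, the secretory lineage factor, 0.43) and 2 negative, against 11% and 8.75% of all rows. These counts are near the shares of all rows. They were 0 and 2 without ZT0 and ZT12. Clca1, a secreted mucus-processing protein, had -1.45 ± 0.19: by day it ran from 140 to 378 rescaled FPKM on high salt, against 333 to 1470 on low salt, and at night from 204 to 808 on high salt, against 221 to 686 on low salt. Spink4, a peptide of goblet cells, had -1.63 ± 0.25, from -0.77 by day and 0.86 at night.

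Pnliprp2, Pla2g4c, Clps and Erdr1 were also among the 12 largest negative double differences. Pnliprp2, a lipase, had -3.14 ± 0.34, with medians of 1.05 on high salt and 8.79 on low salt by day, and 0.938 on high salt and 0.761 on low salt at night. Clps, the pancreatic lipase cofactor colipase, had -2.24 ± 0.25, with medians of 20.0 on high salt and 38.8 on low salt by day, and 34.2 on high salt and 19.5 on low salt at night. Clps belongs to the pancreatic acinar marker list, of which 2 of 8 passed the filter, both negative (1 without ZT0 and ZT12); 5 of the 7 members summed had a median under 1 rescaled FPKM in every group, at a median of 0 for 3 to 5 of them, and the list's summed level ran from 76.4 to 235 on high salt and 167 to 293 on low salt by day, and from 138 to 334 on high salt and 91.8 to 325 on low salt at night. A part of pancreatic RNA in the Clps result was not tested. Pla2g4c, a phospholipase, had -2.91 ± 0.57 and Erdr1 -1.496 ± 0.46. The call for Erdr1 was lost in 6 of the 17 other settings: without ZT0 and ZT12, without ZT8 and ZT12, without replicate 1, without replicate 3, with the length covariate, and with cosine and sine terms and the 5 low-scale libraries left out. The call for Pla2g4c was lost without ZT8 and ZT12 and in the last of these.

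**Figure D4:**
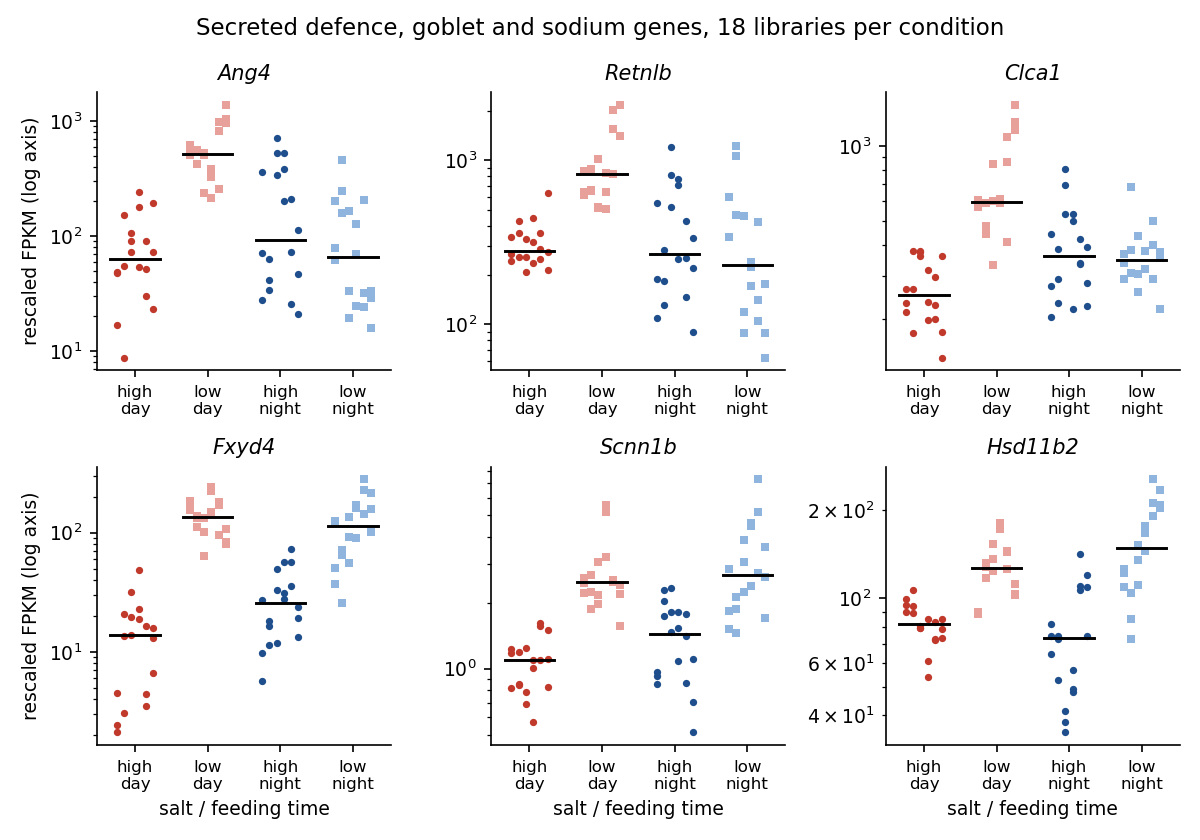
Rescaled FPKM (log axis) in every library of the 4 groups for the defence and goblet genes Ang4, Retnlb and Clca1 and the sodium uptake genes Fxyd4, Scnn1b and Hsd11b2; points run by time from left to right and bars are medians of 18 libraries. Ang4 stands highest in the low-salt day-fed group, at a median of 519, while Fxyd4 and Scnn1b lie lower on high salt under both feeding times.

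Sodium uptake genes that differed between diets were mostly lower on high salt, under both feeding times. Of 20 genes tested, 10 were lower and 1 higher on high salt by day, against 7.05% and 7.79% of all rows. At night 11 were lower and 0 higher, against 19.6% and 15.4% of all rows. The level interaction was called for 5 of the 20, against 19.7% of all rows. Of these 4 were positive and 1 negative, against 11% and 8.75%, and the median of the 20 was 0.05. The interaction was called for 3, all positive, without ZT0 and ZT12, and for Fxyd4 alone with the 5 low-scale libraries left out. Scnn1b, the ENaC beta subunit (chr7:121865038-121918514), ran from 0.572 to 1.62 rescaled FPKM on high salt by day, against 1.57 to 5.6 on low salt by day, and from 0.513 to 2.33 on high salt at night, against 1.46 to 7.32 on low salt at night. High and low salt overlapped only at the edges of their ranges by day, and between 1.46 and 2.33 at night. Its salt difference was -1.01 by day and -0.87 at night, a double difference of -0.14 ± 0.14 (95% interval -0.43 to 0.15). Scnn1g, the gamma subunit, had medians of 0.0724 on high salt and 1.10 on low salt by day, and 0.0659 on high salt and 1.25 on low salt at night; its double difference was -0.15 ± 0.20 (95% interval -0.56 to 0.25). Scnn1a, the alpha subunit, had -0.53 by day and -0.44 at night, a double difference of -0.09 ± 0.12 (95% interval -0.34 to 0.15). Sgk1, the aldosterone-induced kinase that keeps ENaC at the membrane, had -0.78 by day and -0.83 at night, a double difference of 0.05 ± 0.25 (95% interval -0.45 to 0.55). None of these 4 was called, which does not show that their salt effects were equal; the intervals give the sizes still possible.

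Fxyd4, the corticosteroid-induced regulator of the sodium pump, was the negative member (chr6:117933559-117937692, minus strand). It ran from 2.11 to 48.8 rescaled FPKM with a median of 13.8 on high salt by day, against 63.6 to 241 with a median of 136 on low salt by day. At night it ran from 5.70 to 73.6 with a median of 25.5 on high salt, against 25.5 to 281 with a median of 113 on low salt. The salt difference was -3.61 by day and -2.10 at night, a double difference of -1.51 ± 0.31 (95% interval -2.13 to -0.89); without ZT0 and ZT12 it was -1.20 and not called (limma, adjusted p = 0.051). Hsd11b2, the enzyme that protects the mineralocorticoid receptor from glucocorticoids (chr8:105518755-105523988), had -0.63 by day and -1.08 at night, a double difference of 0.45 ± 0.08, 0.43 without ZT0 and ZT12, still called, and 0.30 with the 5 low-scale libraries left out, not called. Atp1b1, the beta subunit of the sodium pump, was also positive (0.40 ± 0.10), with a salt difference of -0.08 by day and -0.48 at night. Nr3c2, the mineralocorticoid receptor, had 0.40 (95% interval -0.03 to 0.83) and was not called.

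The rhythm interaction is the same double difference taken on the 24 h cosine and sine of each group's time course, tested together by limma's F test; its size is the length of the resulting vector on the log2 scale. By day a 24 h rhythm by itself was called in 31.6% of rows on high salt and 42.2% on low salt. At night it was called in 57% on high salt and 22.6% on low salt. The group with 57% holds all 5 libraries of low scale factor, each from ZT8 or ZT12. In the group with 42.2%, the score used as length covariate also moved with time. It ran from 0.247 to 0.345 at ZT0 and ZT4, and from -0.357 to -0.018 at ZT16 and ZT20. The part of these library differences in the 4 shares was not tested. The rhythm interaction was called for 707 rows (6.21%), 174 of which (1.53%) also had a level interaction. It was called for 14 (0.123%) without ZT0 and ZT12, all 14 among the 707. Fits without ZT0 and ZT12 or without ZT8 and ZT12 used cosine and sine terms in place of a mean per time. With those terms and all 6 times 321 rows were called, so the 14 differ from the 707 in both times and model. Of the 707 rows, 329 had a called salt difference in rhythm only in day-fed mice and 203 only in night-fed mice. Between diets alone, the rhythm differed in 1285 rows (11.3%) by day and 1398 (12.3%) at night, and in 19 and 0 without ZT0 and ZT12 (limma; 1982 rows at night had an unadjusted p under 0.05). Without ZT8 and ZT12, which leaves as many libraries, 180 rows had a rhythm interaction.

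Of 16 clock genes tested, 11 had a rhythm interaction, against 6.21% of all rows, and 1 had a level interaction, against 19.7%. The rhythm differed between diets in 13 of the 16 in day-fed mice and in 0 in night-fed mice (limma), and in 3 and 0 without ZT0 and ZT12 as well as without ZT8 and ZT12. For the interaction, 1 of the 16 was called without ZT0 and ZT12, Nr1d1, and 1 without ZT8 and ZT12, where Nr1d1 was not; with cosine and sine terms in place of 6 time means 3 were called, and 2 with the 5 low-scale libraries left out. Nr1d1, the nuclear receptor REV-ERB alpha that represses Bmal1 (chr11:98767932-98775333, minus strand), had a rhythm interaction of 2.49 (limma, adjusted p = 5.09e-12). On high salt by day its means at ZT0, 4, 8, 12, 16 and 20 were 1.47, 9.72, 1.63, 30.5, 11.6 and 25.8 rescaled FPKM, a course that was low at ZT0 and ZT8 and high at ZT12 and ZT20. On low salt by day they were 27.0, 19.8, 5.64, 2.29, 8.31 and 17.5, a single high span around ZT0. At night the courses were close between diets, 1.55, 13.0, 42.8, 32.8, 7.76 and 1.28 on high salt and 2.55, 11.03, 40.3, 30.6, 9.39 and 1.60 on low salt, both highest at ZT8. At ZT0 the SD between replicates was 0.447 on high salt and 4.01 on low salt by day (n = 3 each). The vector was 1.28 and called without ZT0 and ZT12 (limma, adjusted p = 0.040), and 1.95 and not called without ZT8 and ZT12 (limma, adjusted p = 0.16).

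Dbp, a clock output factor (chr7:45705088-45710203), had a rhythm interaction of 2.26 (limma, adjusted p = 1.16e-05). Its day-fed means at ZT0 and ZT12 were 0.707 and 29.5 on high salt, against 13.5 and 1.56 on low salt, whereas its night-fed means at those times were 0.821 and 38.8 on high salt, against 0.667 and 42.3 on low salt. At these times the high-salt day-fed level was thus close to the night-fed levels. Nr1d2 (1.42), which encodes REV-ERB beta, Ciart (1.30), a repressor of CLOCK and BMAL1, Nfil3 (1.11), Cry1 (0.999), the cryptochrome repressor, Tef (0.84), Arntl (0.74), Per3 (0.73) and Npas2 (0.71) were among the others called. Arntl encodes BMAL1, and its call changed in 25 of 72 fits that left out 1 library. Per1 (0.14), Per2 (0.51), Cry2 (0.18), Clock (0.31) and Bhlhe40 (0.15) were not called.

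The fitted peak times also depended on ZT0 and ZT12. Over the 13 clock genes rhythmic on both diets by day, the circular mean shift of high against low salt was 4.53 h, with shifts of single genes from -8.13 to 8.94 h and a resultant length of 0.329, where 1 means identical shifts. Without ZT0 and ZT12 it was -1.80 h, with a range of -4.20 to 0.438 h and a resultant of 0.956, so the direction turned. At night the shift was 0.213 h with 6 times, with a resultant of 0.988 over 15 genes, and 0.190 h without ZT0 and ZT12. Between feeding times on low salt, day-fed peaks stood -9.23 h from night-fed peaks with 6 times and -9.02 h without ZT0 and ZT12; on high salt they stood -5.74 h, with a resultant of 0.373, and -11.01 h, with a resultant of 0.912.

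**Figure D5:**
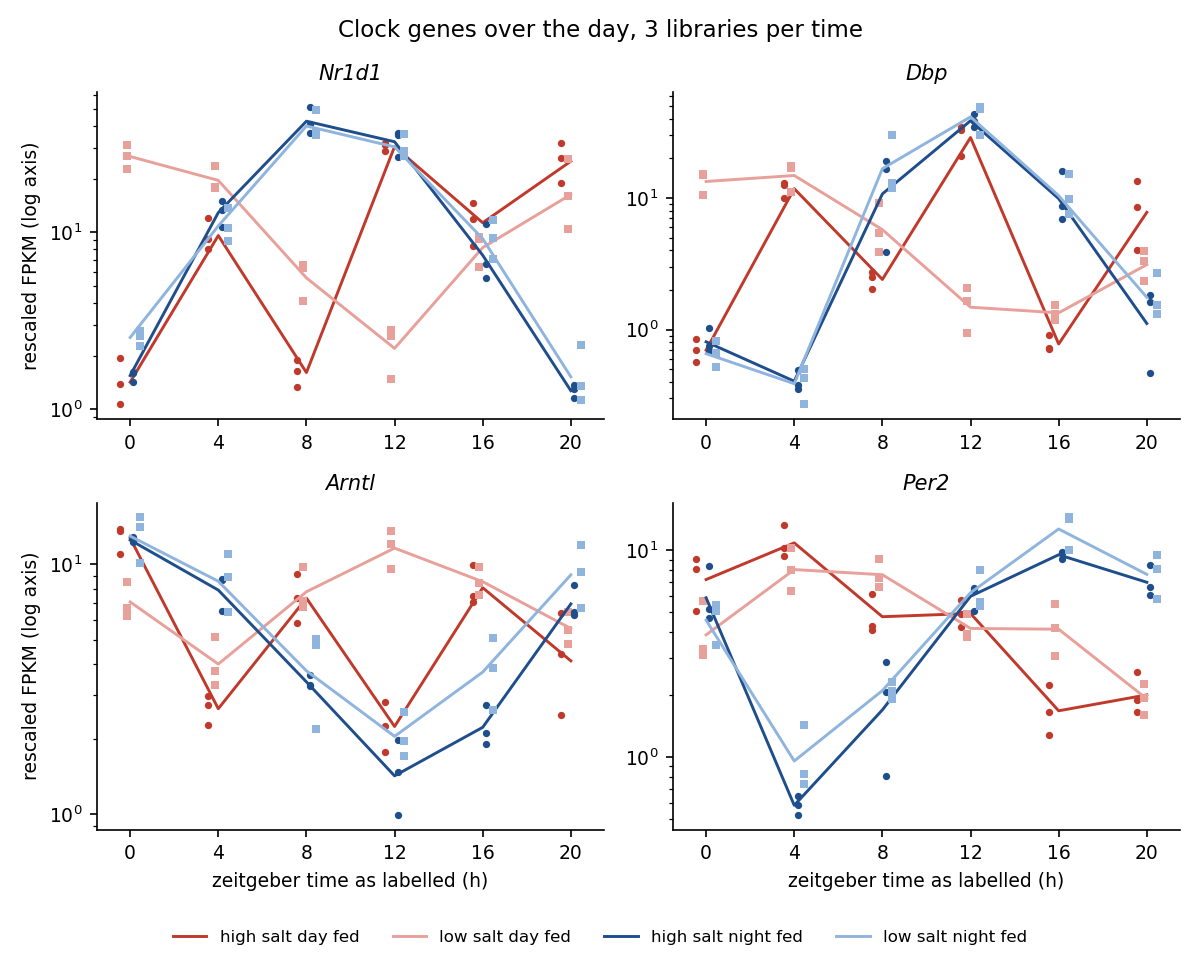
Rescaled FPKM (log axis) of the clock genes Nr1d1, Dbp, Arntl and Per2 against zeitgeber time in the 4 groups; lines join the means on the log scale and points are the 3 libraries of each time. High-salt and low-salt night-fed courses lie together, while the high-salt day-fed course of Nr1d1 zigzags, with means of 1.47 at ZT0 and 30.5 at ZT12, against 27.0 and 2.29 on low salt by day.

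Outside the clock, the MHC class II genes Cd74 (3.25), H2-Aa (2.86), H2-Ab1 (2.72), H2-Eb1 (2.59) and H2-DMb1 (2.21) and Nos2 (2.24) had long vectors and also had level interactions. Mcpt1 and Mcpt2, chymases of mucosal mast cells, had 3.06 and 2.43 and were among the genes still called without ZT0 and ZT12, at 3.01 and 2.34. Mcpt1 had medians of 6.18 on high salt and 4.24 on low salt by day, and 1.92 on high salt and 5.77 on low salt at night. Clca4b, of the chloride channel accessory family, had 2.95 and Cyp4b1, a cytochrome P450, 2.33; neither was called without ZT0 and ZT12, and the call for Clca4b changed in 27 of 72 fits that left out 1 library. Heat shock genes held 4 rhythm calls of 15, against 6.21% of all rows, and 0 without ZT0 and ZT12, among them Hspa8 (0.78), Dnaja1 (0.80) and Dnajb1 (0.89), chaperones that follow body temperature and feeding. Fatty acid oxidation genes held 6 of 18, among them Acot1 (0.97), a thioesterase, and likewise 0 without ZT0 and ZT12. The metallothioneins Mt1 (1.08) and Mt2 (1.64), which bind zinc, were called with all 6 times and not without ZT0 and ZT12.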

How the data were processed

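RNA of mouse colon was sequenced (total RNA by TRIzol, TruSeq stranded mRNA libraries, per the labels' protocols) and expression was deposited by the authors as FPKM per gene and library in tables that were taken to be comparable after rescaling. Per the submitters' processing notes, TopHat2 2.1.1 and Cufflinks 2.2.1 were used with the mm10 build; no source used here states the annotation. FPKM holds no depth, so no interval for counting error is given, and the number of libraries limits the precision. All value columns used were matched to a sample, and 0 were left unmapped.

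From the deposited FPKM, a scale factor per library was computed as the median ratio over 6966 rows of at least 1 FPKM in every library of the series. Rows with a mean of at least 1 rescaled FPKM in at least 1 of 7 groups were kept (11377), and log2(rescaled FPKM + 0.5) was fitted in limma 3.58.1 (R 4.3.3) with 24 means, 1 per group and time (48 residual degrees of freedom). Fold changes on this scale understate changes of genes near the pseudocount. The level interaction averages the double difference over 6 times, and the rhythm interaction tests its 24 h cosine and sine together (2 degrees of freedom). The adjustment was Benjamini-Hochberg over all tested rows, at 0.05. On simulated data of 11377 rows the level test recovered 82% of changes of 0.5 and 100% of changes of 1 on the log2 scale, the rhythm test 38% and 88%, with 7 and 8 calls among 10977 unchanged rows.

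The members and gene lists were chosen with earlier results of these data known. Genes were named by rule: the 12 largest positive and 12 largest negative level interactions with the same sign at 5 or 6 of the 6 times, the 12 longest rhythm vectors, the clock genes, Scnn1a, Scnn1b, Scnn1g, Sgk1, Nr3c2 and Hsd11b2, and up to 4 members of each of 57 lists by adjusted p of each test. Same-numbered replicates did not pair: of 108 same-numbered pairs, 35 correlated over 0.1, with a median of -0.051. Gene coordinates are from GENCODE vM21 on mm10, and promoters from RefSeq on GRCm38.p6. The alternatives comprised other pseudocounts, filters and normalizations, a replicate block, array weights, a length covariate, and fits without replicates, single libraries or times; leaving out ZT0 and ZT12 was added after seeing the data. Not every gene chosen this way is reported here.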

Additional observations from a re-analysis of the deposited data

Results flagged for a closer look

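These results were singled out because the salt effect differed between feeding times by a test of the difference itself (limma, adjusted over all 11377 rows): 2245 rows for level and 707 for rhythm. Positive level interactions were those of Ifi27l2a (4.55), Ifi44 (3.77), Isg15 (3.54), Oas3 (3.49), Ifit2 (3.49), Oas2 (3.46), Usp18 (3.41), Apol9b (3.31), Oasl2 (3.30), Apol9a (3.28), Iigp1 (3.17) and Ifit1 (3.17). Negative level interactions were those of Ang4 (-3.80), Pnliprp2 (-3.14), Pla2g4c (-2.91), Itln1 (-2.77), Clps (-2.24), Retnlb (-1.88), Mptx1 (-1.67), Reg4 (-1.63), Spink4 (-1.63), Fxyd4 (-1.51), Erdr1 (-1.496) and Clca1 (-1.45). Rhythm interactions were those of Cd74 (3.25), Mcpt1 (3.06), Clca4b (2.95), H2-Aa (2.86), H2-Ab1 (2.72), H2-Eb1 (2.59), Nr1d1 (2.49), Mcpt2 (2.43), Cyp4b1 (2.33), Dbp (2.26), Nos2 (2.24) and H2-DMb1 (2.21). Of these rhythm genes, Mcpt1, Mcpt2 and Nr1d1 were still called without ZT0 and ZT12.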

How the results depend on the processing

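The level count of 2245 was 8402 on FPKM as deposited, 7347 with array weights, 645 without ZT8 and ZT12, 729 without ZT0 and ZT12, 508 with cosine and sine terms but no library of low scale factor, and 460 to 3447 when replicates or single libraries were left out (488 without replicate 1, 3441 without replicate 2, 460 without replicate 3, 3447 without the low-salt night-fed ZT0 replicate 2). The positive share of level calls, 55.7%, was 99.0% on FPKM as deposited, where the median double difference of all rows was 0.42, 44.5% with quantile normalization, 71.3% without ZT8 and ZT12, 65.7% without ZT0 and ZT12, 80.7% without the libraries of low scale factor, 77.0% without replicate 1 and 83.5% without replicate 3. The rhythm count of 707 was 7132 on FPKM as deposited, 7275 with array weights, 2348 with the length covariate, 180 without ZT8 and ZT12, 14 without ZT0 and ZT12, 321 with cosine and sine terms, 108 with those terms but no library of low scale factor, 1901 with day-fed times shifted by 12 h, and 119 to 1233 with replicates left out (1233 without the high-salt night-fed ZT12 replicate 1). The day-fed salt level count of 1688 was 1049 as deposited, 5306 with array weights, 3746 with the length covariate, 677 without ZT0 and ZT12 and 579 to 2054 with replicates left out. The night-fed count of 3978 was 9988, 7523 with array weights, 988 without ZT8 and ZT12, 1546 without the libraries of low scale factor and 1662 to 4875. The day-fed salt rhythm count of 1285 was 2945, 8503 with array weights, 3411 with the length covariate, 169 without ZT8 and ZT12, 19 without ZT0 and ZT12, 802 with cosine and sine terms and 403 to 1529. The night-fed count of 1398 was 9579, 6068 with array weights, 2112 with the length covariate, 7 without ZT8 and ZT12, 0 without ZT0 and ZT12, 2 without the libraries of low scale factor and 0 to 2458; at 0, without replicate 2, 1125 rows had an unadjusted p under 0.05 in limma. Fits lacking the low-scale libraries, ZT0 and ZT12, or ZT8 and ZT12 used cosine and sine terms throughout, and the cause of these moves was not tested. With a replicate block the counts were 2184 for level and 712 for rhythm, and no such count moved by over 1.5 times. For the genes followed in the text, 3341 of 3861 values kept direction and side of the threshold, 336 lost a call, 176 gained a call and 8 turned direction: the level interaction of Dbp without ZT8 and ZT12 (-0.72), and on FPKM as deposited those of Bhlhe40 (0.37), Cry2 (0.39), Nfil3 (0.016), Per1 (0.31), Tef (0.36), Dnajb1 (0.075) and Scnn1a (0.34).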

Other observations

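Immediate early genes, the transcription factors that answer a stimulus within minutes, had a negative level interaction in 6 of 16 cases, against 8.75% of all rows, and a positive one in 0, with a median over the 16 of -0.09, and the same 6 were called without ZT0 and ZT12. Nr4a1, an orphan nuclear receptor, had -1.18 ± 0.25, with medians of 22.6 rescaled FPKM on high salt and 31.0 on low salt by day, and 42.1 on high salt and 30.6 on low salt at night. Arc had -0.98, Atf3 -0.84 and Klf2 -0.63. Of 9 EGF receptor genes, 3 were negative, the ligands Areg (-0.87 ± 0.15) and Hbegf (-0.58) and the feedback inhibitor Errfi1. Another 3 were positive, among them Btc (0.48), against 8.75% negative and 11% positive of all rows. Without ZT0 and ZT12, 2 were negative and 2 positive. Cytosolic ribosomal protein genes held 8 negative calls of 20, again against 8.75%, with a median of -0.33, and 0 without ZT0 and ZT12. DNA replication genes (19 tested) and mitosis genes (21 tested) held 0 calls for level, against 19.7% of all rows.

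Among genes that handle foreign compounds, a positive level interaction was called in 9 of 17 phase I genes, with a median of 0.48, and in 6 of 18 conjugation and efflux genes, against 11% of all rows. These counts were 4 and 2 without ZT0 and ZT12. Cyp2c65, an epoxygenase of the gut, had 1.003 ± 0.24, with medians of 66.1 rescaled FPKM on high salt and 34.2 on low salt by day, and 51.2 on high salt and 58.6 on low salt at night. Ces1g had 0.98, Ugt1a1, which conjugates bilirubin, 1.32 ± 0.26 and Ugt2b5 0.80. Among 9 metallothionein and zinc genes 4 were positive and 1 negative, against 11% and 8.75% of all rows, and 3 and 0 without ZT0 and ZT12. Slc30a1, the zinc exporter, had 0.81, Slc39a4, the apical zinc importer, 0.62 and Mt1 -0.52. Surface colonocyte genes held 4 positive calls of 10, against 11% of all rows, and 3 without ZT0 and ZT12, among them Emp1 (0.90) and Ceacam1 (0.71). The 9 epithelial markers held 4 positive calls, among them Krt20 (0.57), and 1 negative, Krt18 (-0.67), against 11% and 8.75% of all rows.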
